A study of Mus musculus with 35 samples.

Results

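The lungs of mice given NRCWE-044 were compared with those of mice given NRCWE-043, both at 18 µg per animal. These are code-named materials that the series title calls nanomaterials, and the title gives the ranking of such materials by their effect on lung pathways as the aim. The comparison rests on the 10 arrays whose titles carry these materials at this dose, 5 of each, out of 35 arrays in the series. All mice were female C57BL/6 of 5 to 7 weeks, received one intratracheal instillation, and were killed 24 h later. The NRCWE-043 arrays are replicates 5, 10, 20, 26 and 33, and the NRCWE-044 arrays are replicates 6, 11, 17, 21 and 23. Both materials were instilled in 40 µl. Other arrays are used beside them, namely 10 of the same materials at 54 µg, 5 of each, 5 of another material, NRCWE-045, at 18 µg, and 5 control arrays labelled 0 µg (replicates 2, 7, 15, 29 and 30). One model was fitted over all 35 arrays, so the other groups also enter the estimate of the spread. The labels do not state what the controls received, nor at which hour of the day tissue was taken, nor whether each array stands for its own mouse. The p-values therefore measure the spread between these samples, which may be partly technical.

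Each value is a log2 ratio of lung RNA (Cy5) to a universal mouse reference RNA made from 11 cell lines (Cy3), and a change is the NRCWE-044 mean minus the NRCWE-043 mean on that scale. A feature, the brightest probe of a gene or an unnamed probe, was called at a Benjamini-Hochberg adjusted p under 0.05 in limma. Lung markers were high on all 10 arrays: the surfactant gene Sftpc lay between 7.49 and 8.54 and the club cell secretoglobin Scgb1a1 between 7.38 and 8.49. Some arrays stood apart. The mean log2 ratio of 15 heart muscle genes was 2.67, 2.19 and 2.50 on replicates 6, 20 and 23 and 0.08 to 0.64 on the other 7, and 0 of the 15 genes were called. Replicate 23 had 68.5% of probes above background in the lung channel, against 47.8 to 59.9% on the other 9 arrays, at a median signal of 345.5 against 100 to 130. In the reference channel the median signal was 158 on replicate 23 and 134 on replicate 5, against 63.5 to 90.5 on the rest of the 10 arrays. On replicate 5 it exceeded the lung channel median of 129. Replicate 6 correlated at 0.848 to 0.875 with the other NRCWE-044 arrays. Control replicate 7 lay with NRCWE-043 rather than with the other controls, as given at the end.

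Several of the genes that differed belong to systems with well-known logic. In the circadian clock, BMAL1 (gene Arntl) and CLOCK switch on their own repressors and output genes, among them Nr1d1 and Dbp, and the NR1D proteins in turn repress Arntl, so the arms peak at opposite hours, in the lung as in other organs. Heat shock chaperones refold damaged proteins and are switched on by HSF1 when proteins misfold. Heme oxygenase 1 (Hmox1) breaks down heme, is strong in macrophages that clear red cells, and is a classic target of the oxidant sensor NRF2.

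Of 25533 features tested, 2795 (10.9%) were called, 1368 (5.36%) higher and 1427 (5.59%) lower with NRCWE-044. The balance depended on the scaling: with median centring of each array in place of loess 517 were called, 76.8% of them higher against 48.9% with loess, and with the Cy5 channel alone 2326 were called, 37.7% higher. At an unadjusted p under 0.05 the count was 6293 (24.6%), and 1130 (4.43%) were called with a change of at least 1.5-fold. The 5 values of one group lay wholly above or below the 5 of the other in 1706 features (6.68%), in 867 (3.4%) with NRCWE-044 higher and in 839 (3.29%) with it lower. The 12 largest changes each way named below were taken from these features, so their lack of overlap was a condition of naming. Of the called features 355 changed at least 2-fold, 264 higher and 91 lower, and the median size of the change was 0.53, against 0.15 over all features. Of 516 called genes with another tested probe, 121 (23.4%) had one called the same way, and of those at least 2-fold higher 7 of 37 (18.9%). Another probe was called the opposite way in 9 of the 516 and in 2 of the 37. Among genes with a symbol the largest differences were lower: the clock output factor Dbp at -4.53 and the clock repressor Nr1d1 at -3.72. The largest in the other direction among these genes was the MHC class I gene H2-Q4 at 3.00. Of the called features, 178 had no NRCWE-043 array well above background, and 10 had no NRCWE-044 array well above it. The sizes of these changes rest on signals near background in that group. The unnamed transcript ENSMUST00000099042 was not well above background on any NRCWE-043 array. Set against the lowest signal well above background there, it was at least 7.85-fold higher with NRCWE-044 (measured means 2.598 and -2.309).

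The same pair of materials at 54 µg, on 10 other arrays, gave 1940 called features (7.6%), 1379 (5.4%) higher and 561 (2.2%) lower. Of the 2795 features called at 18 µg, 1306 were called at 54 µg too, which is 46.7% of the first list and 67.3% of the second; all 1306 had the same direction, 944 higher and 362 lower. A further 1489 were called at 18 µg and not at 54 µg, and their median absolute change was 0.46 at 18 µg and 0.22 at 54 µg. The difference between the doses was tested directly: 0 features (0%) were called by limma, and 836 (3.27%) had an unadjusted p under 0.05. A call at only one dose is therefore not shown to be specific to it.

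**Figure D1:**
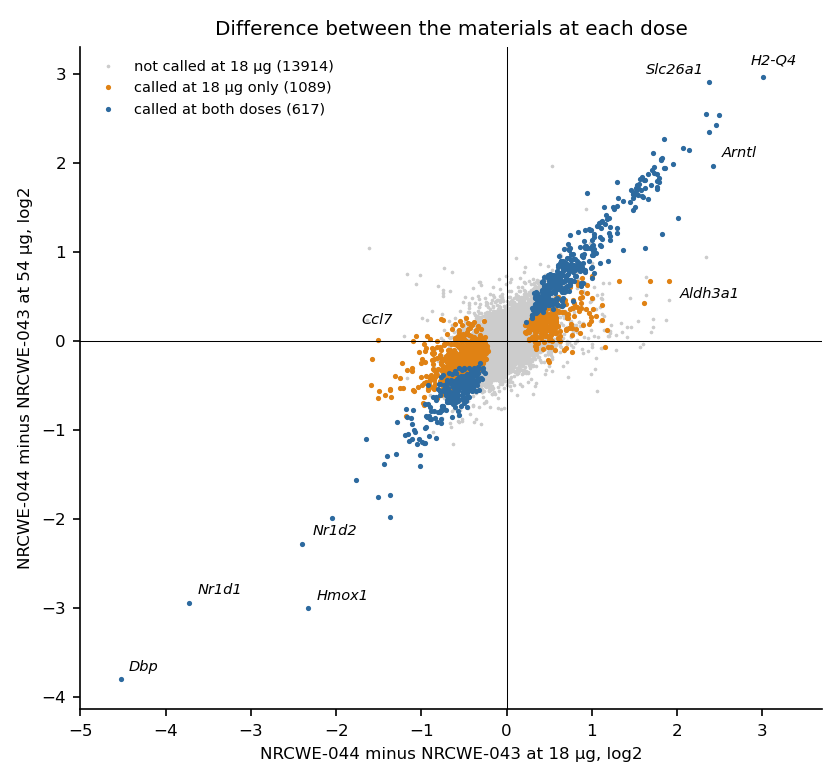
Change of 15620 genes with a symbol, NRCWE-044 minus NRCWE-043 on the log2 scale, at 18 µg (horizontal) and 54 µg (vertical). Each point is a gene; blue points were called at both doses, orange points at 18 µg and not at 54 µg, and grey points were not called at 18 µg. Dbp, Nr1d1, Nr1d2 and Hmox1 are far below 0 at both doses and H2-Q4, Slc26a1 and Arntl far above, whereas Ccl7 and Aldh3a1 were called at 18 µg alone.

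Among genes with a symbol, clock genes gave the largest differences between the materials. Dbp encodes a transcription factor that drives clock output genes through D-box sites. Its log2 ratios were 2.20, 1.63, 2.29, 2.58 and 2.19 with NRCWE-043 and -2.01, -2.16, -2.54, -2.32 and -2.72 with NRCWE-044. No NRCWE-044 value came near an NRCWE-043 value. The change was -4.53 (SE 0.63, adjusted p = 9.5e-06), a level 23.1-fold higher with NRCWE-043, and a second probe gave -4.26. Nr1d1, a nuclear receptor that represses Arntl, stood at 1.43, 1.38, 2.23, 2.08 and 2.32 with NRCWE-043 and at -1.57, -1.66, -1.80, -1.98 and -2.16 with NRCWE-044. It was above background on 3 of the 5 NRCWE-044 arrays. The groups again did not overlap, with a change of -3.72 (SE 0.43, adjusted p = 9.8e-07), or 13.2-fold. Its relative Nr1d2 changed by -2.40 (SE 0.38, adjusted p = 4.6e-05). Of 11 repressors and output genes of the clock tested, 6 were lower and 0 higher, where 5.59% of all features were lower. Their median change was -0.97 against -0.02 over all features. The other 3 called were Hlf at -1.28 and Tef at -0.97, relatives of Dbp, and the period gene Per3 at -1.10. The groups did not overlap in any of the 6, as in 6.68% of all features. Per1 (0.04), Per2 (-0.05), Cry2 (-0.09), Ciart (-0.27) and Bhlhe41 (-0.30) did not pass the test.

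The opposite arm went the other way. Arntl read -1.64, -0.98, -1.27, -2.15 and -1.30 with NRCWE-043 and 0.72, 0.69, 1.25, 1.64 and 0.48 with NRCWE-044. All NRCWE-044 values were above 0 and all NRCWE-043 values below, and the change was 2.43 (SE 0.39, adjusted p = 7.3e-05). Nfil3, which represses D-box genes, was higher by 1.82 (SE 0.23, adjusted p = 2.9e-06). In all, 3 of 6 genes of this arm were higher and 0 lower, with a median of 0.63, where 5.36% of all features were higher. Clock (0.33) and Npas2 (0.04) were not called.

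At 54 µg the counts were the same in both arms, 6 of 11 lower and 3 of 6 higher. Over all features 2.2% were lower and 5.4% higher at that dose. Dbp, Nr1d1 and Arntl changed by -3.79, -2.94 and 1.97. The controls did not sit at one level: Dbp read -1.97, 2.56, 0.79, 2.71 and -2.67 on them, so that replicates 2 and 30 resembled NRCWE-044 and replicates 7 and 29 resembled NRCWE-043. Over the 11 repressors and output genes the mean log2 ratio ran from 1.02 to 1.76 on NRCWE-043 arrays, from -0.15 to 0.29 on NRCWE-044 arrays and from 0.09 to 1.69 on controls. The 5 arrays of NRCWE-045 at 18 µg had Dbp at -0.48 to 1.22, between both groups. The labels give no hour of tissue collection, so that hour and material cannot be told apart.

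**Figure D2:**
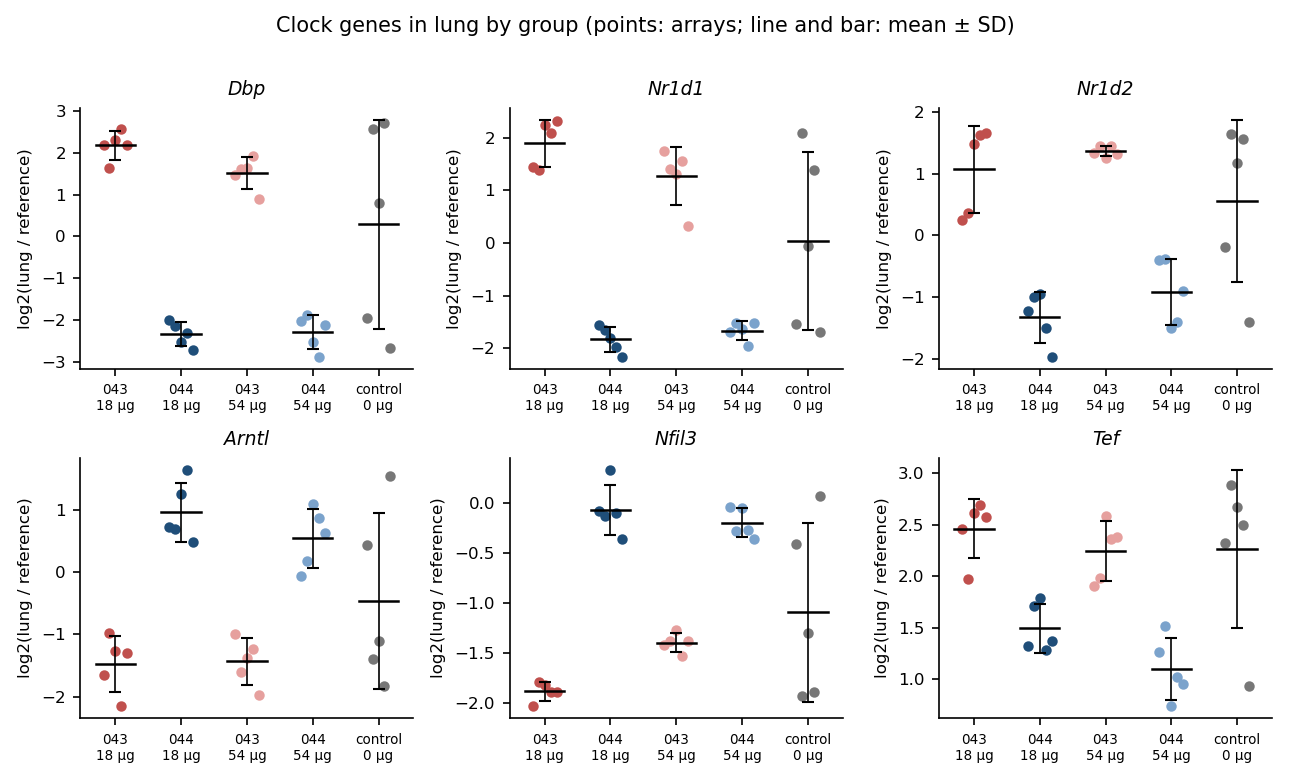
Log2 ratio of lung to reference RNA for 6 clock genes, by group. Points are arrays, lines are means and bars are SD over 5 arrays. Dbp, Nr1d1, Nr1d2 and Tef are low with NRCWE-044 at both doses, Arntl and Nfil3 are high, and the controls include values near those of either material.

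The promoters of the clock genes are shown because 6 of 11 genes of one arm were lower and 3 of 6 of the other higher. The 250 bases before the start site (RefSeq, GRCm38.p6) were read on both strands. A gene counted if any of its starts held the motif, whereas the shares over all promoters count each start. The E-box CACGTG, through which BMAL1 and CLOCK act, was found in 1 of the 6 called repressors and output genes, Tef. It was found in 6.02% of 32851 promoters of that length. Of the 10 tested genes of this arm with a promoter in the table, 4 held it: Tef and the uncalled Per1, Ciart and Bhlhe41. The D-box TTATGNAA, the site of DBP, TEF and HLF, was found in 1 of the 6, Per3, and in 3.07% of all. Of the 10 tested genes, 2 held it: Per3 and the uncalled Per1. Dbp, Nr1d1 and Nr1d2 held neither in this window. Per3 (chr4:151044666-151044915, minus strand) has a pair of D-boxes, beginning 205 and 158 bases before the start, and Tef (chr15:81802423-81802672, plus strand, one of 2 starts in the table) an E-box beginning 127 bases before it. Both are printed 5′ to 3′ with the matches in capitals.
Per3: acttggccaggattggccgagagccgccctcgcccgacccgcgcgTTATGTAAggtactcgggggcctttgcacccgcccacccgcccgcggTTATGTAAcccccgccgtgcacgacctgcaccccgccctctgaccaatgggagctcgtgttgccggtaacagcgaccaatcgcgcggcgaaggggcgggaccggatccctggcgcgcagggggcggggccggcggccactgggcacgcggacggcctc
Tef: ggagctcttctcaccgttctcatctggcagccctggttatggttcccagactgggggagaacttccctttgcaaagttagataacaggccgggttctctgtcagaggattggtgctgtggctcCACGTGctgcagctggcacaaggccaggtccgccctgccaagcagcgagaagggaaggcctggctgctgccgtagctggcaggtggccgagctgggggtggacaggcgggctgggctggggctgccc

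Heat shock chaperones were higher with NRCWE-044: 10 of 15 tested were higher and 0 lower, where 5.36% of all features were higher. All 15 changes were above 0, with a median of 0.57 against -0.02 over all features. Hspa1a, the inducible HSP70, had log2 ratios of 0.19, 0.20, 0.73, 0.80 and 0.94 with NRCWE-043 and 2.53, 1.19, 2.21, 1.58 and 1.12 with NRCWE-044. The groups did not overlap; the change was 1.16 (SE 0.29, adjusted p = 0.0069), and its near-identical copy Hspa1b may share the signal. The small heat shock protein Hspb1 read 1.42, 1.23, 1.39, 1.54 and 1.37 with NRCWE-043 and 2.92, 2.17, 2.27, 2.52 and 2.08 with NRCWE-044. That is a change of 1.01 (SE 0.19, adjusted p = 4.7e-04), again without overlap. Hsph1, which exchanges nucleotide on HSP70, was higher by 1.04, the HSP70 helpers Dnajb1 and Dnaja1 by 0.77 and 0.63, the constitutive HSP70 Hspa8 by 0.70, and Hspa4l by 0.57. For Hspa8 the lung channel differed by 0.29 and the reference channel by -0.41, and with the Cy5 channel alone the change was 0.14 (adjusted p = 0.56). The HSP90 genes Hsp90aa1 and Hsp90ab1 differed by 0.58 and 0.56 and the mitochondrial co-chaperonin Hspe1 by 0.44. Bag3 (0.35), Hspb8 (0.32), Chordc1 (0.24), Hspd1 (0.18) and the lens and muscle chaperone Cryab (0.05) did not pass the test.

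The mean log2 ratio of the 15 chaperones was 0.30, 0.14, 0.28, 0.23 and 0.11 on NRCWE-043 arrays, 1.03, 0.57, 0.89, 0.73 and 0.70 on NRCWE-044 arrays, and 0.51, 0.14, 0.39, 0.08 and 0.91 on controls. The groups did not overlap. All NRCWE-043 arrays lay within the control range, as did the NRCWE-044 arrays except replicate 6. On the same controls, in the same order, the mean of the clock repressors and output genes was 0.49, 1.69, 1.23, 1.69 and 0.09. For the chaperones too, the unknown hour of tissue collection and the material cannot be told apart. Within the 4 slides that held both materials the difference in this mean was 0.73, 0.43, 0.61 and 0.49. At 54 µg 0 of 15 were called and the median change was 0.11; the difference between doses had an unadjusted p under 0.05 in 6 of 15, lowest for Dnajb1 (0.0021), where 3.27% of all features did, and none passed adjustment. With median centring 0 of 15 passed the test and the median was 0.29, with the Cy5 channel alone 4 passed, with only the 10 arrays in the fit 6, and on the slides that held both materials, with the slide as a block, 3.

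**Figure D3:**
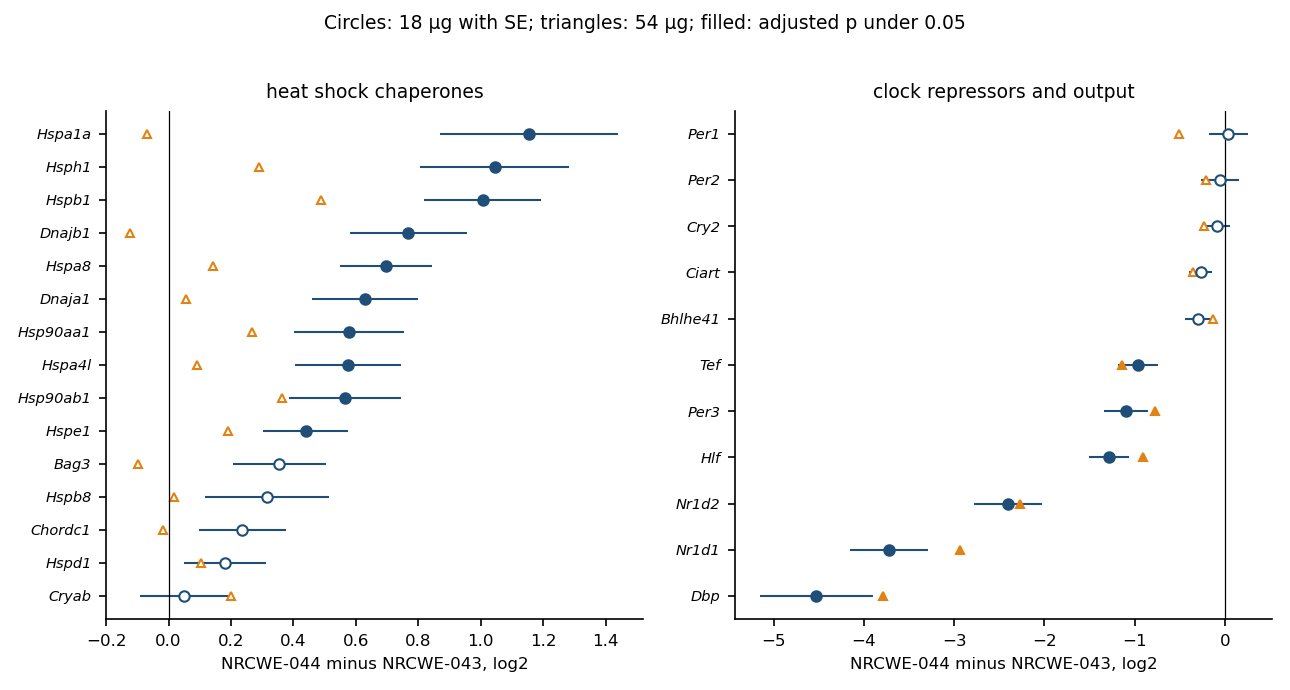
Change with NRCWE-044 against NRCWE-043 (log2) of each heat shock chaperone and each clock repressor or output gene. Circles with SE bars are 18 µg, triangles are 54 µg, and filled symbols passed an adjusted p under 0.05; the horizontal scales differ. 10 of 15 chaperones passed at 18 µg and 0 at 54 µg, whereas the same count of 6 of 11 clock genes passed at both.

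The heat shock element, the binding site of HSF1, is built from inverted GAA repeats, and the pair GAANNTTC was searched in the same 250 bases on both strands. It was found in 4 of the 7 called chaperones that had a promoter in the table (Hspa1a, Hspb1, Hspe1 and Dnaja1), again counting any start of a gene. The share among all 32851 promoters, counted per start, was 6.69%. Of all 11 tested chaperones with a promoter, 5 held it: these 4 and the uncalled Hspd1. The promoters of Hspe1 and Hspd1 overlap and hold the same match. Of the 3 shown, Hspa1a (chr17:34972157-34972406, minus strand) and Hspe1 (chr1:55087898-55088147, plus strand) hold one pair each, beginning 104 and 84 bases before the start. Hspb1 (chr5:135887669-135887918, plus strand) holds 2, beginning at 117 and 97 bases. The matches are in capitals.
Hspa1a: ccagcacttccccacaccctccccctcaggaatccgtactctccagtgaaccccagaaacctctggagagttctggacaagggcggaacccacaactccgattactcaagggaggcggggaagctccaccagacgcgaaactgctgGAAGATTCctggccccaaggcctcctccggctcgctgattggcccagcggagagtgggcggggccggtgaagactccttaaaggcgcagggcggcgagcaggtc
Hspb1: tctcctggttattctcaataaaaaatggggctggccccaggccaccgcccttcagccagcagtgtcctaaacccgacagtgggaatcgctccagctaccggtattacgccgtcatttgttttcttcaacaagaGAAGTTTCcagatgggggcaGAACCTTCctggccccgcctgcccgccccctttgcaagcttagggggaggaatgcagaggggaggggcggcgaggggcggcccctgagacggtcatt
Hspe1: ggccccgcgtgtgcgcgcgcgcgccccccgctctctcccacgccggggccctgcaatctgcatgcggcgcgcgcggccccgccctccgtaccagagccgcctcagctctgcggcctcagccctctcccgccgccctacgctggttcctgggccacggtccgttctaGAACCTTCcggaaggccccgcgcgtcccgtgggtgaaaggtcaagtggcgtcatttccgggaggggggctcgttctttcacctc

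Among single genes outside these systems, Hmox1 was the furthest apart of the stress genes. It read -1.36, -0.62, -1.45, -0.91 and -0.50 with NRCWE-043 and -3.05, -3.42, -3.97, -3.66 and -2.38 with NRCWE-044. The groups did not overlap, and the change was -2.33 (SE 0.32, adjusted p = 7.1e-06), 5.02-fold higher with NRCWE-043, with -0.97 from a second probe. The controls lay at -3.33, -4.07, -3.95 and -3.21, with replicate 7 at -1.43, so that NRCWE-044 differed from control by -0.10 (adjusted p = 0.93) and NRCWE-043 by 2.23 (adjusted p = 8.7e-05). At 54 µg the change between the materials was -3.001. Hmox1 is one of 22 NRF2 targets tested, with a list median of -0.00. Of these, 1 was higher (the glutathione transferase Gsta3, 0.84) and 2 were lower (Hmox1 and the thioredoxin reductase Txnrd1, -0.31). That share is close to the 10.9% called over all features. Txnrd1 lost its call without any one of replicates 6, 11, 17, 26 or 33 and Gsta3 without replicate 10. In the heme and iron list Hmox1 and the transferrin receptor Tfrc (-0.47) were lower, 2 of 18, again close to the share called over all features.

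H2-Q4 encodes a class I MHC molecule of the Q region. It read 0.34, 0.26, 0.04, 0.66 and 0.18 with NRCWE-043 and 2.68, 3.78, 3.19, 3.61 and 3.24 with NRCWE-044, a change of 3.00 (SE 0.32, adjusted p = 2.2e-07) or 8.03-fold, without overlap. The lung channel of H2-Q4 differed by 2.37 and the reference channel by -0.63, so the fold is not that of the lung channel alone. In controls H2-Q4 read 3.17, 0.64, 2.57, 1.90 and 3.52. So 4 of 5 controls were above every NRCWE-043 array and replicate 7, at 0.64, lay among the NRCWE-043 values. H2-Q genes are close copies of each other and a probe may not separate them. The remaining H2-Q genes tested, H2-Q1, H2-Q2, H2-Q6, H2-Q7, H2-Q8 and H2-Q10, had differences of -0.39 to 0.16 and none was called. Of 20 genes of class I presentation 1 was higher, H2-Q4, and 5 were lower: the peptide loading gene Tapbp (-0.48), H2-M3 (-0.64), the peptide transporters Tap2 (-0.69) and Tap1 (-0.64), and the immunoproteasome subunit Psmb8 (-0.43). Over all features 5.36% were higher and 5.59% lower. Without any one of replicates 6, 10, 11 or 33 the count of lower class I genes was 3.

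Slc26a1, a sulfate transporter, stood at -0.12, 0.12, -0.27, -0.32 and -0.00 with NRCWE-043 and at 2.16, 2.67, 2.67, 2.52 and 1.23 with NRCWE-044. The change was 2.37 (SE 0.37, adjusted p = 3.9e-05), and 2.91 at 54 µg. Its relative Slc26a2, another sulfate transporter, was lower, at -0.58 (adjusted p = 0.0021). The kinase gene Ulk3 was higher by 2.37 (SE 0.22, adjusted p = 3.9e-08), but its second probe gave -0.20 (adjusted p = 0.29). Others among the 12 largest were Fbxl12os (2.49), BC061237 (2.46, second probe 0.88, above background on 3 of 5 NRCWE-043 arrays), Gm10375 (2.34), the centrosome gene Sfi1 (2.14), the GPI anchor gene Pign (2.07) and the transcription factor Sox5 (1.95). These 9, H2-Q4 included, changed by 1.99 to 2.97 at 54 µg. In controls each of them was lowest on replicate 7.

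Among the genes of growth arrest and cell death, Cdkn1a (p21), an inhibitor of cyclin-dependent kinases, was higher and the pro-apoptotic Bax was lower. Cdkn1a read -0.86, -0.77, -1.19, -1.10 and -1.21 with NRCWE-043 and 1.56, 0.83, 0.96, 0.82 and 0.78 with NRCWE-044. Its change was 2.02 (SE 0.34, adjusted p = 1.3e-04) without overlap, while a second, dimmer probe gave 0.05 (adjusted p = 0.89). Cdkn1a was named among the 12 largest changes, for which lack of overlap was a condition. Bax was at -1.30 (SE 0.25, adjusted p = 6.0e-04). The remaining 13 of 15 p53 targets were not called, where 10.9% of all features were called, and the list median was -0.08. Aldh3a1, an aldehyde dehydrogenase of airway and cornea, was higher by 1.91 (SE 0.43, adjusted p = 0.0028). Its 5 NRCWE-044 values were 4.08, 0.55, 0.79, 0.66 and 0.80, so replicate 6 set much of the mean; the NRCWE-043 values were -0.11, -1.08, -0.60, -0.38 and -0.49. A second probe gave 1.53. It was the 1 called gene of 14 in the list of xenobiotic enzymes, where 10.9% of all features were called. With only these 10 arrays in the fit its adjusted p was 0.093.

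**Figure D4:**
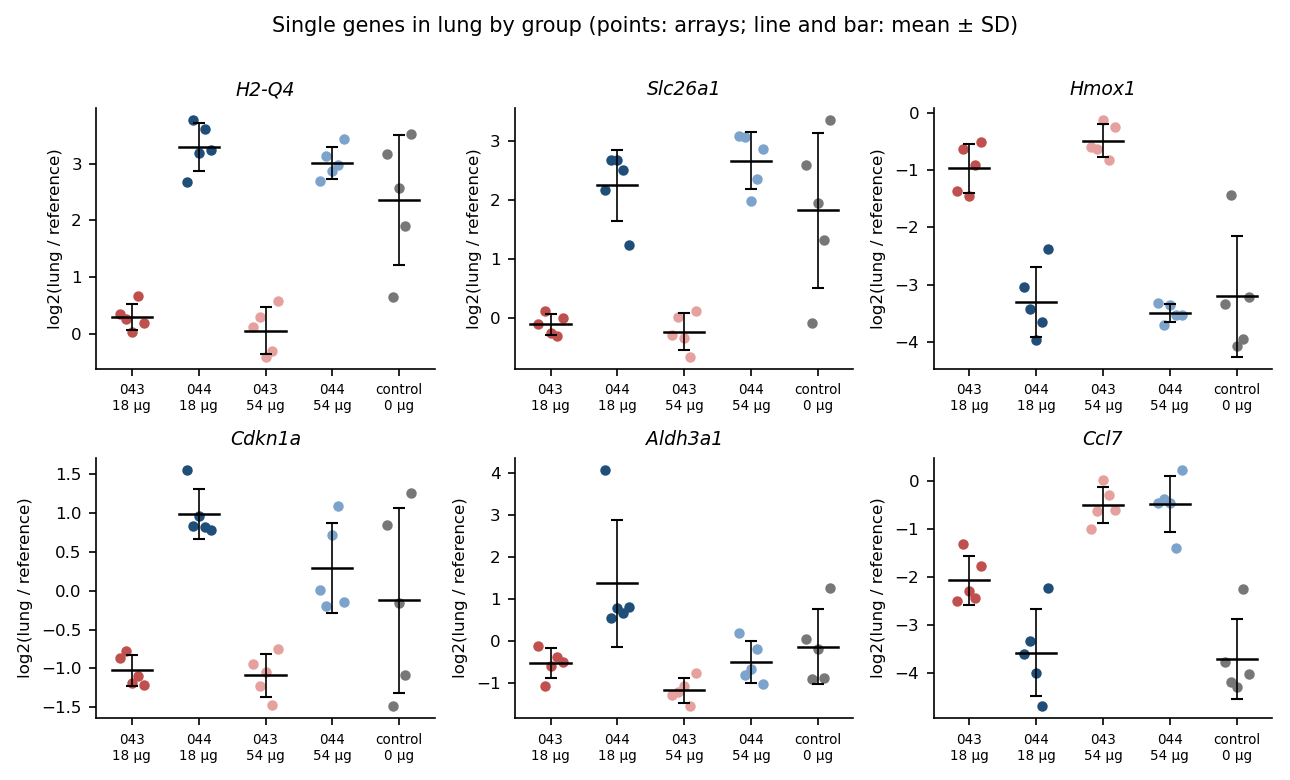
Log2 ratio of lung to reference RNA for 6 genes by group, with points for arrays, lines for means and bars for SD over 5 arrays. H2-Q4, Slc26a1 and Cdkn1a are high and Hmox1 low with NRCWE-044 at both doses. Replicate 6 at 4.08 stands above the other Aldh3a1 values, and Ccl7 was called at 18 µg and not at 54 µg.

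The other genes among the 12 largest in the lower direction, beside the clock genes and Hmox1, were the ephrin receptor Epha1 (-2.04), the meiosis gene Tex11 (-1.77), the matrix protein Matn4 (-1.64, second probe -1.49), the lysosomal scaffold Lamtor2 (-1.51), the B cell genes Cd79b and Ms4a1, the nucleolar protein Ncl (-1.43) and the mesothelial gene Lrrn4 (-1.40). Ncl had -0.21 (adjusted p = 0.29) on its second probe. Epha1 read 1.93, 2.15, 1.92, 2.20 and 2.31 with NRCWE-043 and 0.35, -0.15, 0.08, 0.40 and -0.39 with NRCWE-044, while the controls were at 0.08, 2.11, 0.23, 0.38 and 0.13. Again it was replicate 7 among the controls that lay with NRCWE-043.

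Part of the lymphocyte markers were lower with NRCWE-044 at 18 µg. Of 16 T and NK cell markers 5 were lower and 0 higher, where 5.59% of all features were lower, with a median of -0.47: the T cell receptor chain Cd3d (-1.04), the kinase Lck (-1.003), the granzyme Gzma (-1.10), the costimulatory receptor Cd28 (-0.65) and the coreceptor Cd8b1 (-0.64, above background on 3 of 5 NRCWE-044 arrays). Cd3d stood at 2.07, 2.85, 2.55, 2.67 and 2.79 with NRCWE-043 and at 1.38, 1.40, 1.81, 1.92 and 1.23 with NRCWE-044 (SE 0.22, adjusted p = 0.0015), without overlap. Cd4 (0.00), Cd3e (-0.34), Cd3g (-0.29) and the NK receptor Ncr1 (-0.17) were not called. The mean log2 ratio of the 16 markers ran from 0.63 to 1.15 on NRCWE-043 arrays and from 0.38 to 0.66 on NRCWE-044 arrays. On control replicates 2, 7, 15, 29 and 30 it was 0.65, 1.41, 0.88, 1.30 and 0.63. Here too the unknown hour of tissue collection and the material cannot be told apart. In a piece of lung, fewer cells of a type and less RNA per cell cannot be told apart.

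Of 12 B and plasma cell markers 4 were lower and 1 was higher, where 5.59% of all features were lower and 5.36% higher. The list median was -0.42. The lower ones were the B cell receptor component Cd79b (-1.504), CD20 (Ms4a1, -1.503), the IgM receptor Fcmr (-1.59) and Cd38 (-0.55). The higher one was the joining chain Jchain of secreted antibody (0.76). Cd79b read 0.58, 0.80, 0.49, 0.60 and 0.62 with NRCWE-043 and -1.02, -0.61, -1.15, -0.93 and -0.73 with NRCWE-044, with no overlap (SE 0.38, adjusted p = 0.0092). The controls again spread over both: -1.33, 1.33, -0.71, 0.50 and -0.86. Cd79a (-0.57) did not pass. Ms4a1 lost its call without replicate 10, 23 or 33, and without any one of these the B cell list had 2 lower genes. Jchain lost its call without any one of replicates 11, 20, 26 or 33, and Fcmr was at -0.25 (adjusted p = 0.78) with Agilent's processed signals. Without replicate 5, 8 T and NK markers were lower.

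At 54 µg 0 lymphocyte markers were called lower, 2 B and plasma cell markers were called higher (Jchain at 0.98 and Cd22 at 0.68), and the list medians were -0.14 for T and NK cells and -0.28 for B and plasma cells; for no marker did the difference between doses pass adjustment. With median centring at 18 µg 0 T and NK markers and 1 B cell marker were called lower, with medians of -0.53 and -0.49. On the slides that held both materials the mean over T and NK markers differed by -0.26, -0.59, -0.64 and -0.55, and over B cell markers by -0.42, -0.39, -0.63 and -0.60.

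Markers of other lung cells differed in few members, and their counts stand beside 5.36% higher and 5.59% lower over all features. Alveolar type 1 cells form the gas exchange surface, and of 10 of their markers 3 were lower: the water channel Aqp5 (-0.92, SE 0.14, adjusted p = 3.0e-05, second probe -0.32), Akap5 (-0.56) and Igfbp2 (-0.55), whereas Ager (0.27), Pdpn (-0.31) and Hopx (0.15) were not called. Akap5 was at 0.03 with Agilent's processed signals (adjusted p = 0.97) and lost its call without replicate 6, 17 or 26, and Igfbp2 lost its call without any one of replicates 6, 17, 20, 21, 26 or 33. Aqp5 alone of the 3 was also called at 54 µg (-0.71). Of 17 neutrophil markers 2 were higher, the integrin Itgam (1.69) and the G-CSF receptor Csf3r (1.01), yet 2 other Itgam probes gave -0.09 and -0.15. That share is close to the 10.9% called over all features, and without replicate 6 the neutrophil count was 4. Of 13 monocyte and interstitial macrophage markers 3 were lower, among them F13a1 (-0.71) and Vcan (-0.56), which lost its call without any one of replicates 5, 10, 17, 20, 21 or 23. Of 14 alveolar macrophage markers the scavenger receptor Marco (-0.76) and the integrin Itgax (-0.47) were lower and the fatty acid binding protein Fabp5 (0.96) was higher, though not without replicate 5, 6 or 10. Itgax lost its call without replicate 6, 10 or 21, and Marco with Agilent's processed signals (-0.39, adjusted p = 0.34). The macrophage list mean ran from 3.40 to 3.92 with NRCWE-043 and from 3.48 to 3.75 with NRCWE-044. Of 14 alveolar type 2 markers only the protease Napsa was called (-0.47). Of 12 adipose genes 0 were called, and their mean ran from 0.57 to 1.44 with NRCWE-043 and from 0.77 to 2.37 with NRCWE-044. The part of these marker differences in the other results was not tested.

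Of the CC chemokines, which draw monocytes and lymphocytes, 3 of 13 were lower and 0 higher, where 5.59% of all features were lower. All 13 CC chemokines tested had changes below 0, with a median of -0.74, and the 3 called were Ccl7 (-1.51, SE 0.41, adjusted p = 0.013) and Ccl12 (-0.94), ligands of CCR2, and the T cell attractant Ccl5 (-0.82). Ccl7 read -2.49, -1.30, -2.29, -2.43 and -1.77 with NRCWE-043 and -3.61, -3.33, -3.99, -4.70 and -2.23 with NRCWE-044, where replicate 23 overlapped the other group. Ccl2 was at -0.74 (adjusted p = 0.25), and without replicate 23 at -1.13 (adjusted p = 0.046). Ccl7 lost its call without replicate 10 (-1.32, adjusted p = 0.050) or 21 (-1.23, adjusted p = 0.053), and Ccl5 without any one of replicates 10, 11, 17, 20, 21 or 26. The count of CC chemokines called lower was 1 without replicate 10, 1 without replicate 21 and 5 without replicate 23, 0 with median centring and 1 on the slides that held both materials with the slide as a block. At 54 µg 0 of 13 were called, and the median was 0.20. The difference between doses had an unadjusted p under 0.05 in 6 of 13, where 3.27% of all features did, and passed adjustment in 0.

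**Figure D5:**
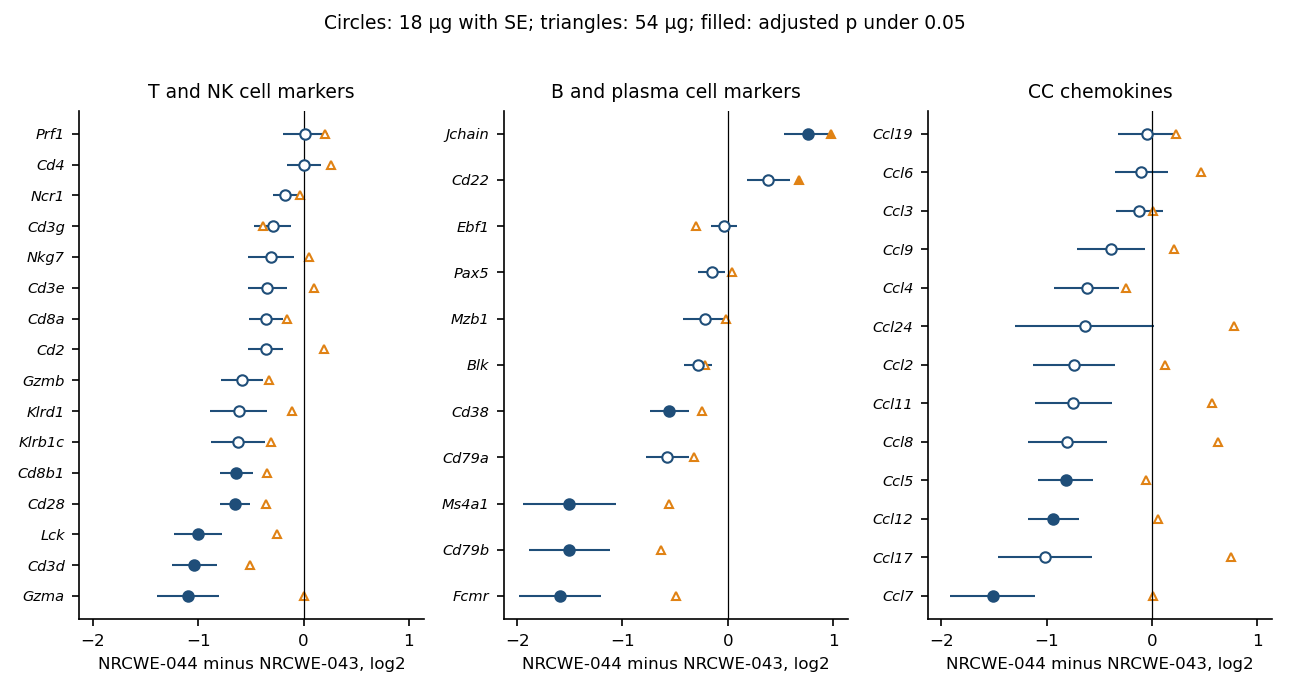
Change with NRCWE-044 against NRCWE-043 (log2) of each T and NK cell marker, 11 of the 12 B and plasma cell markers and each CC chemokine. Circles with SE bars are 18 µg, triangles are 54 µg, and filled symbols passed an adjusted p under 0.05. 5 T and NK markers, 4 B cell markers and 3 chemokines passed below 0 at 18 µg, and none of these 3 lists had a gene called lower at 54 µg.

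Few genes of the acute inflammatory response passed the test at this dose, where 10.9% of all features did. The acute phase protein gene Saa3, among the most inducible genes of injured lung, read -1.38, 2.61, -1.16, 0.70 and 1.17 with NRCWE-043 and -1.60, -0.41, -3.07, -3.67 and 2.52 with NRCWE-044. The spread within each group exceeded the difference of -1.63 (SE 0.99, adjusted p = 0.32). Of 18 acute phase genes 0 were called at a median of -0.41, and of 12 CXC chemokines 0 at -0.18. The neutrophil attractants Cxcl1 (-0.40) and Cxcl5 (0.53) did not pass the test, nor did Timp1 (-1.20, adjusted p = 0.18), Lcn2 (-0.76, adjusted p = 0.17) or Il1b (-0.80, adjusted p = 0.071). Without replicate 23, whose Saa3 and Timp1 were the highest of its group, Timp1 was called at -1.74 (adjusted p = 0.034) and Lcn2 at -1.07 (adjusted p = 0.037); without replicate 5 Il1b was called at -0.98 (adjusted p = 0.027). The growth factor Csf2 was called lower at -0.82 (adjusted p = 0.039) as 1 of 15 inflammatory cytokines, and not without any one of replicates 6, 10, 11, 20, 26 or 33. Ch25h, which makes an oxysterol that restrains infection, was lower, at -1.06 (SE 0.27, adjusted p = 0.0082). The immediate early gene Ier3 was at -1.16 (adjusted p = 7.5e-04), and the antiviral Bst2 at -1.18 (adjusted p = 0.0061) as 1 of 23 interferon-response genes. Mt2, a metal-binding metallothionein, was at 0.84 (adjusted p = 0.16) and was called without replicate 17 (1.196, adjusted p = 0.035).

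Set beside the controls, which both contrasts share, NRCWE-044 at 18 µg had 0 called features (0%), with 2765 (10.8%) at an unadjusted p under 0.05, and NRCWE-043 had 1076 (4.21%), 350 (1.37%) higher and 726 (2.84%) lower. Without control replicate 7, left out after the data had been seen, NRCWE-044 had 0 and NRCWE-043 had 1856 (7.27%), 644 higher and 1212 lower. In that fit Hmox1 differed from control by 0.35 with NRCWE-044 (adjusted p = 0.70) and by 2.67 with NRCWE-043 (adjusted p = 4.2e-09). Whether that array carries the right label was not tested. The controls were not equally near each material. For each called feature it was noted whether a control array lay nearer to the NRCWE-043 or to the NRCWE-044 mean. Control replicate 7 lay nearer NRCWE-043 in 2396 of the 2795 features (85.7%), against 437, 815, 1296 and 451 for replicates 2, 15, 29 and 30. Over all tested features the shares were 61.9% for replicate 7 and 37.8 to 50.8% for the others. In the 307 features called at both doses and changed at least 2-fold at 18 µg, replicate 7 lay nearer NRCWE-043 in 303 (98.7%), and the other controls in 9, 15, 43 and 0. The NRCWE-045 arrays at 18 µg lay nearer NRCWE-043 in 10 to 15 of these 307, and directly compared, NRCWE-045 differed from NRCWE-043 in 2181 features (8.54%) and NRCWE-044 from NRCWE-045 in 115 (0.45%).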

How the data were processed

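RNA from random lung sections (RNA integrity number above 7, 200 ng) was labelled with Cy5 and hybridised with a Cy3-labelled universal mouse reference on 2-colour Agilent arrays, per the labels' protocols. The spot intensities were extracted with Feature Extraction 11.0.1.1, per the file headers. The log2 ratios deposited by the authors served as an alternative; their correlation with the values used here was 0.993 to 0.999 per array. The array names no genome build, so no probe position is given.

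Median spot intensities were background-corrected (normexp, offset 50) and loess-normalised within each array in limma 3.58.1 (R 4.3.3). Control spots were left out, and a probe had to be well above background on at least 3 arrays of any of the 7 groups. The brightest probe stood for a gene, and probes without a symbol were kept, which gave 25533 features, 15620 with a symbol. One linear model over 35 arrays in 7 groups (28 residual degrees of freedom) gave all contrasts, with moderated statistics from eBayes and Benjamini-Hochberg adjustment over all features. SE is that of the contrast. The arrays lie on 7 slides, of which 4 hold both materials at 18 µg. In simulated data with 25533 features, 50 genes were changed at each size, with noise drawn independently for each value. The 18 µg comparison recovered 38% of changes of 0.5, 90% of 1, 98% of 1.5 and 100% of 2 on the log2 scale. It made 6 false calls. Far more features, 2795, were called in the real data, so these rates need not hold there. The number of arrays limits the precision.

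Named were the 12 largest non-overlapping changes each way, up to 4 called members of each of 41 gene lists (2 where none was called), the 5 smallest p-values of the dose difference and 19 genes in any case, of which a part is described and some are not reported here; further members named beside them, among them Tef, Per3, Hspa1a, Dnaja1, Hsp90aa1, Hsp90ab1, Hspe1, Hspa4l, Gzma, Cd38, Tap1 and Psmb8, were chosen after their values were seen. The members and lists were chosen with earlier results of these data known. Alternatives covered background, normalisation, filters, probes, slides, arrays left out and the fold threshold.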

Additional observations from a re-analysis of the deposited data

Results flagged for a closer look

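In 78 genes and both groups at 18 µg, the gap between the most extreme array and its nearest neighbour was divided by the range of the 5 arrays and set against 0.71, Dixon's 95% value. Of 156 gene and group pairs, 13 passed it, 6 with NRCWE-043 and 7 with NRCWE-044, where chance gives about 1 in 20, or 8. NRCWE-044 replicate 6 was far above the others for Aldh3a1 (0.93; 4.08 against 0.553 to 0.801) and Cdkn1a (0.771; 1.56 against 0.779 to 0.958) and below them for Aqp5 (0.754; 4.36 against 4.95 to 5.14). NRCWE-044 replicate 17 was high for Hspa8 (0.827), replicate 11 for Jchain (0.711) and replicate 23 for Lamtor2 (0.741) and Bst2 (0.838; 0.726 against -1.09 to -0.799). NRCWE-043 replicate 5 was low for Ccl12 (0.756), Ier3 (0.713) and Bst2 (0.825; -0.0587 against 0.675 to 0.83). NRCWE-043 replicate 10 was high for Ccl2 (0.763), Timp1 (0.786; 1.36 against -1.37 to -0.787) and Cxcl5 (0.85; -0.146 against -2.76 to -2.37).

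The Cy3 channel holds the same reference RNA on every array. Tested alone, it differed between the groups in 200 features (0.783% of those tested), all lower with NRCWE-044, with a median absolute difference of 0.762. Of these, 93 were called in the log ratio, 91 of them higher, and 14 were among the features called with at least a 2-fold change. In this test, where the Cy3 channel was normalised by itself, the difference of H2-Q4 was -0.517. The part of this difference in the log ratios was not tested beyond the fit on the Cy5 channel alone. Before normalisation the median Cy3 signal was highest on NRCWE-044 replicate 23 (158) and NRCWE-043 replicate 5 (134). The part of these arrays in the Cy3 calls was not tested.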

How the results depend on the processing

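Of 2795 features called at 18 µg, 511 were among the 517 called with median centring in place of loess, 1182 among the 1223 called with only the 10 arrays in the fit, and 709 among the 741 called on slides that held both materials with the slide as a block. A threshold of at least 1.5-fold left 1130. At 54 µg (1940 called) median centring gave 850 and the 1.5-fold threshold 1022. Leaving out 1 array at a time gave 2040 (without replicate 10) to 2913 (without replicate 5). The share of calls that were higher, 48.9%, was 59.5% without replicate 23. Without replicates 6, 20 and 23 (added once the data had been seen) 2852 were called, 67.8% higher, 1779 of them shared. Without control replicate 7 (likewise added) 2908 were called. The remaining alternatives gave 2281 to 3986. The dose difference had 0 calls under every alternative in which it was fitted. For 113 named genes under 30 settings, 2975 of 3388 values kept direction and call, 365 kept direction and lost the call, 34 gained one, and 13 uncalled values changed sign. Akap5 reversed with Agilent's processed signals (0.027). The cause was not tested for any of these. The correlation between arrays of a slide was 0.185. No paired analysis was possible because each replicate number occurs once in the series, so the groups share none by number. The slides pair arrays of both groups, and the fit with the slide as a block is the one given above.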
